A study of Drosophila pseudoobscura with 29 samples.

Results

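The narrow gene promoters of chromosome 2 and of the 5 groups of chromosome 4 were followed through embryonic development of Drosophila pseudoobscura. A promoter was represented by a transcription start site cluster (TSC), a stretch of neighbouring positions at which the cap-selected 5' ends of transcripts pile up. Members were the TSCs assigned to a gene, lying on these chromosomes and spanning at most 30 bp. The rule found 2582 of 7423 gene TSCs on these chromosomes (34.8%, 95% Wilson interval 33.7 to 35.9%) and of 26066 TSCs in the series. They belonged to 1972 of the 4291 genes with a TSC on chromosome 2 or 4, and the remaining 4841 gene TSCs there, all wider, served for comparison. The share was alike on chromosome 2 (1518 of 4301, 35.3%) and on the chromosome 4 groups (1064 of 3122, 34.1%). Some regions were listed under a pair of genes, so the 2582 entries held 2547 distinct regions, 35 of them listed under more than 1 gene with the same values.

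The samples were whole embryos of the wild-type reference genome strain, laid in population cages, collected in windows of 1 h from 0 to 29 h after egg laying and frozen without any treatment. Each of the 29 windows was 1 sample, RNA from many embryos of unstated number, and there was no replicate. Samples carried their own barcodes from the cDNA step on, and library preparation took place on the pool of all windows. The 27-28 h sample held 1011 reads and was left out, and the other 28 held between 723775 reads (25-26 h) and 11862896 reads (0-1 h). The gene identifiers of the TSCs were not paired with names in the sources used here, so no gene name, gene role, marker check or sequence is given, and TSCs are named by position in the genome release the study used (r2.9, counted from 1).

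RAMPAGE sequences cDNAs that reach the capped end of the transcript, so that the reads count transcripts by the position where they start. In flies, initiation can be focused on a few bases or dispersed over a longer stretch. Focused promoters often carry positioned elements such as the TATA box, the Initiator or the downstream promoter element, and are known for genes switched on in particular tissues or stages. Dispersed promoters are known for genes that many cells keep on. In RNA of whole embryos, a change in the number of cells that use a promoter and a change in transcripts per cell cannot be told apart.

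Narrow TSCs had a median width of 15 bp, which was also the most frequent width (231 TSCs, against 168 of 14 bp and 96 of 16 bp), and 62 covered a single base. Most of them were weak. Their median was 57 reads over the 28 windows (lowest 17, highest 2977812), against 1583 (37 to 643697) for wider TSCs, and their median maximum was 3.69 RPM, reads per 1000000 reads of the sample in TSCs, against 40.5 RPM. A level of 10 RPM, the minimum for the timing results, was reached by 639 narrow TSCs (24.7%) and 3852 wider ones (79.6%).

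Width went with the number of reads. Every one of the 583 gene TSCs with under 30 reads was narrow, as were 1099 of 1349 with 30 to under 100 reads (81.5%). The share was 38.7% at 100 to under 300 reads, 21.8% at 300 to under 1000, 7.77% at 1000 to under 3000, 3.93% at 3000 to under 10000 and 2.10% (17 of 811) at 10000 reads or more. TSCs were called on the pooled reads of the whole series, and the part of read number in the width of single TSCs was not tested. Narrow and wider TSCs were therefore compared within these bins of total reads.

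**Figure D1:**
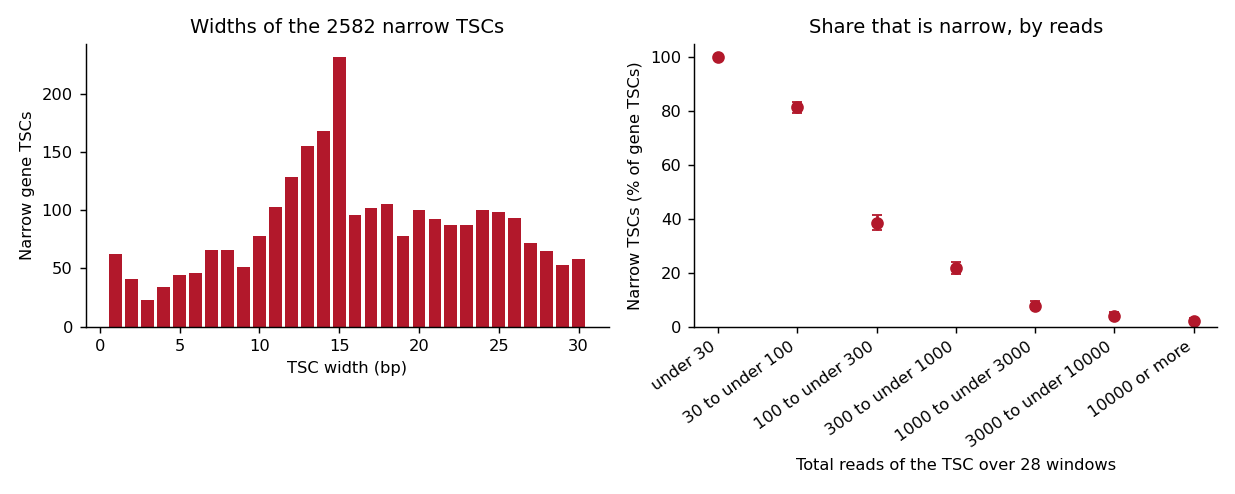
Left, the number of narrow gene TSCs on chromosomes 2 and 4 (y axis) at each width in bp (x axis). Right, the percent of gene TSCs there that were narrow (y axis) in bins of total reads over 28 windows (x axis), with 95% Wilson intervals that cover counting error only. Widths pile up at 15 bp, and the narrow share falls from 100% to 2.10% as reads rise.

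On either side of the limit the values were close. The 176 gene TSCs of 28 to 30 bp had a median of 223 reads, and the 128 of 31 to 33 bp had a median of 289. Of those that reached 10 RPM, 48 of 101 (47.5%, 38.1 to 57.2%) below the limit and 32 of 72 (44.4%, 33.5 to 55.9%) above it peaked at 20 h or later. The most-read TSC of 30 bp (4_group4, 2751979 to 2752008, plus strand) had 7369 reads, ranged from 4.17 to 194 RPM with a median of 68.9 and peaked at 10-11 h. The most-read of 31 bp (chromosome 2, 19197350 to 19197380, plus strand) had 12445 reads, ranged from 0 to 442 RPM with a median of 13.5 and peaked at 5-6 h.

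The signal of the members was concentrated in 1 region. FBgn0250278_01 (4_group4, 635082 to 635100, minus strand, 19 bp) took 2977812 of the 3950642 reads in narrow TSCs (75.4%). It was abundant in every window, at a median of 24804 RPM, a maximum of 53073 RPM at 8-9 h and a minimum of 4094 RPM at 21-22 h, where both neighbouring windows held 24801 and 14785 RPM. The next most-read region, FBgn0073796_01, had 126007 reads, and the 10 most-read together held 81.6%.

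Narrow TSCs together gave 9.02% of the gene reads on these chromosomes, and 2.38% without FBgn0250278_01. With it, the share by window had a median of 8.53% in the windows starting at 0 to 9 h and 10.4% in those starting at 20 h or later, with overlapping ranges (4.57 to 14.1% and 8.15 to 13.4%). Without it, the median share was 1.97% at 0 to 9 h (lowest 0.780% at 0-1 h, highest 2.58% at 7-8 h), 2.36% at 10 to 19 h (1.77 to 5.20%) and 5.33% at 20 h or later (4.12 to 6.86%). The first and last groups of windows did not overlap. On the RPM scale the sum of the other narrow TSCs had a median of 7758 RPM at 0 to 9 h, 8241 RPM at 10 to 19 h and 17054 RPM at 20 h or later. RPM is itself a share, of all TSC reads of the sample, so a change in the amount of transcripts was not measured. How many TSCs are detected depends on depth, so the share of detected gene TSCs that were narrow was compared in the 3 pairs of an early and a late sample whose reads differed by under 10%, a limit set after seeing the data. It was 20.9% at 2-3 h and 29.1% at 24-25 h (5254566 and 5247396 reads), 19.3% at 4-5 h and 27.4% at 26-27 h (2659437 and 2797552 reads), and 15.9% at 5-6 h and 24.2% at 22-23 h (1399705 and 1440146 reads), higher in the later sample of all 3. Whatever the depth, its median was 22.8% in the first group of windows and 23.3% in the last.

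**Figure D2:**
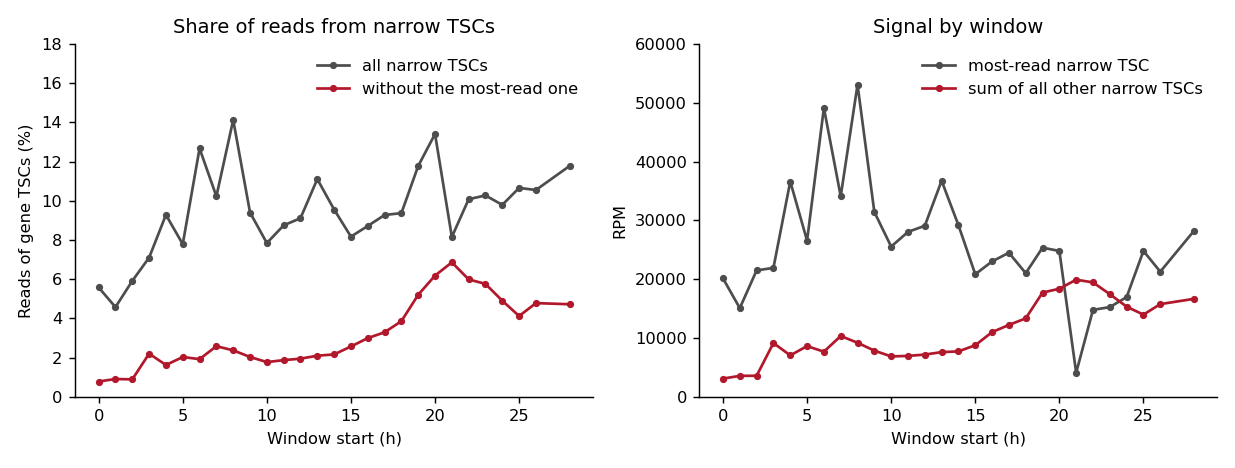
Left, reads of narrow TSCs as a percent of all gene TSC reads on chromosomes 2 and 4 (y axis) by start of the window in h (x axis), with and without the most-read narrow TSC, 1 point per sample. Right, RPM of that TSC and the summed RPM of all other narrow TSCs. Without the most-read TSC the share is at most 2.58% up to 9-10 h and lies between 4.12 and 6.86% from 20 h on.

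Change over time was tested with limma's moderated F-test of a spline of the window's start hour on log2(RPM + 1), with Benjamini-Hochberg adjustment over all 25360 TSCs that reached 1 RPM in any window. With 1 sample a window, the error is the scatter around a smooth course. Of the 2582 narrow TSCs, 2455 passed the filter and 1822 of these (74.2%) changed over time at an adjusted p under 0.05, where 79.1% of all TSCs tested did. At the end of the series 1283 of them had a higher fitted value than at the start and 539 a lower one. Called and ending higher were thus 52.3% of the narrow TSCs tested and 41.5% of all TSCs tested, and called and ending lower 22.0% and 37.6%. Of those called, 70.4% of narrow TSCs and 52.5% of all TSCs ended higher. edgeR's quasi-likelihood test on the recovered reads kept 1133 narrow TSCs after its own filter and called 1093, against 87.9% of all TSCs, with 873 ending higher, against 54.4% of all TSCs, and 1072 were called by both. DESeq2 called 1608 of 2275, where it called 75.6% of all TSCs. Among TSCs that reached 10 RPM, limma called 620 of 639 narrow ones (97.0%) and 92.6% of all.

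The direction differed from wider TSCs within each bin of reads that held both kinds. Among those called, 66.2% of narrow TSCs with 30 to under 100 reads ended higher, against 52.9% of wider ones. At 300 to under 1000 reads the shares were 77.2% and 45.9%, at 1000 to under 3000 reads 73.3% and 36.4%, and at 3000 to under 10000 reads 79.5% (31 of 39) and 29.4%. At 10000 reads or more they were 68.8% (11 of 16) and 31.9%. The share called at all rose with reads for narrow TSCs, from 49.6% under 30 reads to 97.5% at 300 to under 1000 reads, where 89.2% of wider TSCs were called. TSCs are not replicates of a condition, and the comparison of the kinds is a description without a test.

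Peaks of narrow TSCs lay late. Of the 639 that reached 10 RPM, 356 peaked in a window starting at 20 h or later (55.7%, 51.8 to 59.5%), 168 at 10 to 19 h and 115 at 0 to 9 h. Over all TSCs at this level 25.3% peaked at 20 h or later, and among the wider gene TSCs of the same chromosomes it was 718 of 3852 (18.6%), with 2267 (58.9%) at 0 to 9 h. The window with the most narrow peaks was 22-23 h (79 TSCs, 12.4%), and the first 3 windows, which included the deepest sample, held 9, 12 and 8 narrow peaks against 390, 385 and 327 wider ones.

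At matched reads narrow TSCs also peaked at 20 h or later more often, except among the most-read. At 100 to under 300 reads 134 of 195 narrow TSCs (68.7%, 61.9 to 74.8%) and 76 of 157 wider ones (48.4%, 40.7 to 56.2%) peaked at 20 h or later. At 300 to under 1000 reads it was 133 of 261 (51.0%, 44.9 to 57.0%) and 23.8% (21.1 to 26.8%), at 1000 to under 3000 reads 35 of 90 (38.9%, 29.5 to 49.2%) and 18.2% (16.0 to 20.6%), and at 3000 to under 10000 reads 22 of 40 (55.0%, 39.8 to 69.3%) and 14.1% (12.1 to 16.5%). In none of these bins did the counting intervals overlap. At 10000 reads or more, 2 of 17 narrow TSCs (11.8%, 3.29 to 34.3%) and 13.4% of 794 wider TSCs did, a difference not detectable at this number. With wider TSCs weighted to the read bins of the narrow ones, 55.7% of narrow and 30.2% of wider TSCs peaked late, a difference of 25.6 percentage points.

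The 5 samples with fewer than 1000000 reads all started at 19 h or later, and 1 read was worth up to 1.38 RPM there against 0.0843 RPM at 0-1 h, so a maximum of 10 RPM rests on fewer reads in late windows. This bears most on the bins under 300 reads, in which wider TSCs also leaned late. With at least 300 reads the late share was 47.1% of 408 narrow TSCs and 21.2% of wider TSCs weighted alike, a difference of 25.9 points, and without those 5 windows the difference was 28.0 points.

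**Figure D3:**
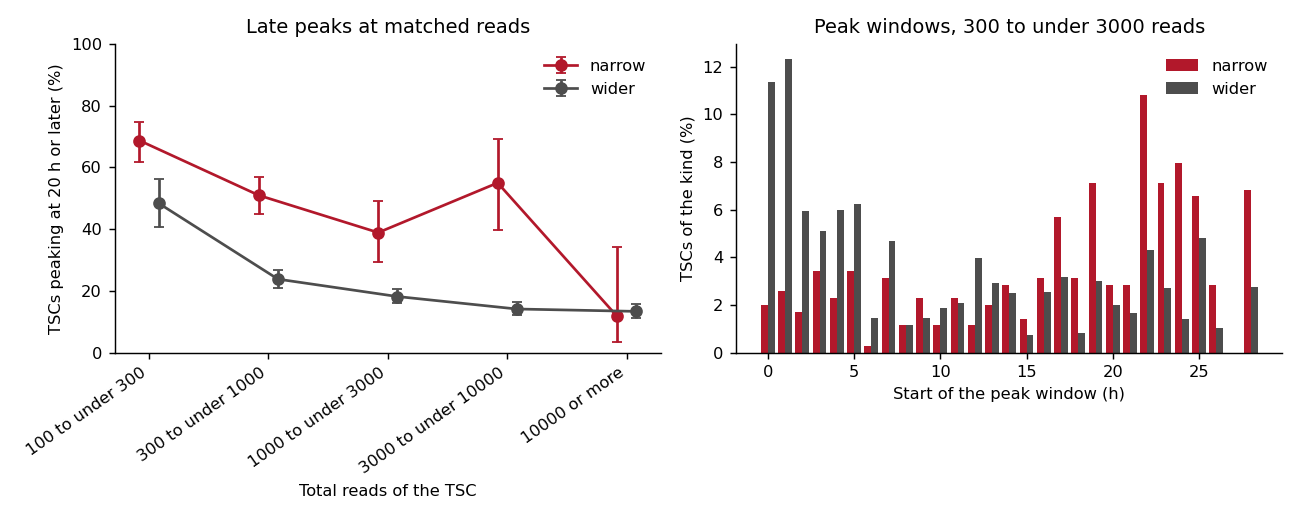
Left, the percent of TSCs reaching 10 RPM that peaked at 20 h or later (y axis) in bins of total reads (x axis), narrow and wider gene TSCs of chromosomes 2 and 4, with 95% Wilson intervals. Right, the percent of the TSCs of each kind with 300 to under 3000 reads (y axis) that peaked in each window (x axis, start in h). Narrow TSCs peak at 20 h or later more often up to 10000 reads, and at 10000 reads or more these late shares are close.

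Narrow TSCs were active in shorter stretches of development. With the study's definitions, 535 of 639 (83.7%) were regulated, with at least 60% of their summed RPM inside 8 consecutive windows, where 37.7% of all TSCs and 1077 of 3852 wider gene TSCs (28.0%) were. The gap was seen in each bin of reads from 100 up. It was 97.4% against 85.4% for 100 to under 300 reads, 76.2% against 39.7% for 300 to under 1000, and 70.6% against 16.4% for 10000 or more. With few reads a TSC reaches 10 RPM only through a window where it is high. In the bins under 300 reads this filter by itself favours the regulated class and low entropy, and it bears on the 83.7%. At 1000 reads or more, 75.5% of 147 narrow and 21.2% of 2839 wider TSCs were regulated. Only 2 narrow TSCs met the housekeeping definition, a maximum under 5 times the minimum, where 8.18% of all TSCs and 376 wider ones (9.76%) did. These shares were not matched for reads. Under 300 reads 0 TSCs of either kind met it, and at 300 to under 1000 reads 0.383% of narrow and 0.938% of wider ones did. At 1000 to under 3000 reads it was 0 of 90 narrow and 6.27% of wider TSCs. At 3000 to under 10000 reads it was 0 of 40 and 14.5%, and at 10000 or more 1 of 17 and 20.0%. Shannon entropy of the profile, which is higher the more evenly the signal is spread over windows, had a median of 3.24 bits for narrow and 3.44 bits for wider TSCs at 100 to under 300 reads, and 3.74 against 4.26 bits at 300 to under 1000. It was 3.75 against 4.50 bits at 1000 to under 3000 reads, 3.81 against 4.58 bits at 3000 to under 10000 reads, and 3.94 against 4.61 bits at 10000 reads or more.

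Among the members, the late share differed with the other TSCs of the gene. By width it was 64.5% (53.3 to 74.3%) of 76 TSCs of 1 to 10 bp, 51.3% (45.3 to 57.3%) of 265 of 11 to 20 bp and 57.4% (51.7 to 62.9%) of 298 of 21 to 30 bp, and the intervals overlapped. At 300 to under 3000 reads the narrowest were no longer the highest, with 10 of 25 (23.4 to 59.3%), 42.4% (34.6 to 50.5%) of 144 and 53.3% (46.1 to 60.4%) of 182, and the intervals overlapped there too. By chromosome it was 58.4% on chromosome 2 and 51.9% on the chromosome 4 groups, whose intervals overlapped as well. Narrow TSCs of the 944 genes that had no wider TSC peaked late in 272 of 425 cases (64.0%, 59.3 to 68.4%), and those of the 1028 genes with both kinds in 84 of 214 (39.3%, 33.0 to 45.9%). Wider TSCs of these 1028 genes did so in 313 of 1449 cases (21.6%), whether or not the narrow TSC of the gene reached 10 RPM. These shares by gene were not matched for reads. In genes with a narrow TSC of at least 10 RPM, wider TSCs weighted to the read bins of the narrow ones peaked late in 35.6% (310 TSCs).

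A narrow TSC was the most-read TSC of its gene in 991 cases. The other 1591 held a median of 1.11% of the reads of the most-read TSC, and 1115 of them (70.1%) lay downstream of it, at a median of 2439 bp, while 476 lay upstream at a median of 1287 bp. Among TSCs that reached 10 RPM, 55.7% of narrow and 41.3% of wider ones were the only TSC of their gene, and 68.4% and 66.3% were the most upstream.

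The 4 highest early narrow TSCs that passed the time test differed in breadth. FBgn0250278_01, described above, had 39.7% of its summed RPM in its best 8 windows and an adjusted p of 0.0012, from limma as in all that follow. FBgn0073796_01 (4_group4, 4115648 to 4115674, plus strand, 27 bp) held 127 RPM at 0-1 h, rose to 3303 RPM at 3-4 h, peaked at 4901 RPM at 7-8 h and was at 0 at 21-22 h, with 93.3% in 8 windows (adjusted p 1.4e-14). FBgn0081826_02 (4_group5, 1981950 to 1981966, minus strand, 17 bp) was the sharpest of the 4. It read 15.0, 29.4 and 62.2 RPM in the first 3 windows, 1493 RPM at 3-4 h, 168 RPM at 4-5 h and 5.7 RPM at 5-6 h, stayed at or under 1.7 RPM from 6-7 h on and was at 0 in 13 windows. Its fitted value fell by 5.86 ± 1.63 (SE) on the log2(RPM + 1) scale from first to last window (adjusted p 4.1e-06). The samples themselves read 15.0 RPM at 0-1 h and 0 RPM at 28-29 h, a smaller fall on this scale than the fitted one. The last of the 4 (4_group5, 106312 to 106334, minus strand) peaked at 381 RPM at 7-8 h over a median of 84.3 RPM and never fell under 22.8 RPM.

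The 4 highest narrow TSCs that peaked between 10 and 19 h were all on chromosome 2. The highest (4994569 to 4994590, minus strand, 22 bp) stayed at or under 15.3 RPM up to 13-14 h, reached 453 RPM at 18-19 h and then held 2788, 2396 and 2416 RPM in the next 3 windows before it read 134 RPM at 22-23 h (adjusted p 8.9e-11). A TSC at 22982577 to 22982604 (plus strand, 28 bp) climbed from 0.288 RPM at 1-2 h to 880 RPM at 19-20 h and was back at 7.9 RPM at 28-29 h, with an adjusted p of 5.3e-22. The TSC at 22561244 to 22561265 (minus strand) peaked at 703 RPM at 12-13 h and the one at 15704779 to 15704806 (minus strand) at 757 RPM at 18-19 h, with 79.9% and 96.0% of their summed RPM in 8 windows. Each of them was transient, low both at the start and at the end of the series.

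The 4 highest late narrow TSCs were near 0 for the first 6 windows. FBgn0247339_01 (4_group3, 4803998 to 4804023, plus strand, 26 bp) had no read from 0 to 6 h, read 231 RPM at 20-21 h, between 291 and 623 RPM from 21-22 h to 25-26 h, 1124 RPM at 26-27 h and 2612 RPM at 28-29 h. Its level at 28-29 h was at least 10330-fold higher than the 3 reads that a count of 0 allows at 0-1 h, and its fitted change was 11.16 ± 1.03 on the log2(RPM + 1) scale (adjusted p 1.6e-16). A further pair of these TSCs lay on chromosome 2 and also peaked at 28-29 h, at 1026 RPM (16870855 to 16870882, minus strand, adjusted p 5.4e-20) and 864 RPM (4977973 to 4977996, plus strand, adjusted p 5.6e-18). The remaining one (chromosome 2, 10457574 to 10457593, plus strand, 20 bp) peaked earlier, at 2643 RPM at 22-23 h, and had fallen to 18.0 RPM at 28-29 h. The 350 distinct regions with a late peak, chosen by that peak, were not all at 0 early on, as 87 of them had a read at 0-1 h.

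Steady narrow TSCs were few. The 4 with the lowest ratio of maximum to minimum, by which they were chosen, were led by a TSC on chromosome 2 (1303191 to 1303210, plus strand, 20 bp) that ranged from 62.4 to 215 RPM around a median of 147 RPM and missed the time test (adjusted p 0.24). A weaker one (23589110 to 23589126, plus strand) ranged from 4.35 to 17.4 RPM and also missed it (adjusted p 0.79). Those at 3826644 to 3826663 on 4_group3 and at 12927753 to 12927778 on chromosome 2 passed it, with maxima of 5.20 and 5.69 times their minima.

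**Figure D4:**
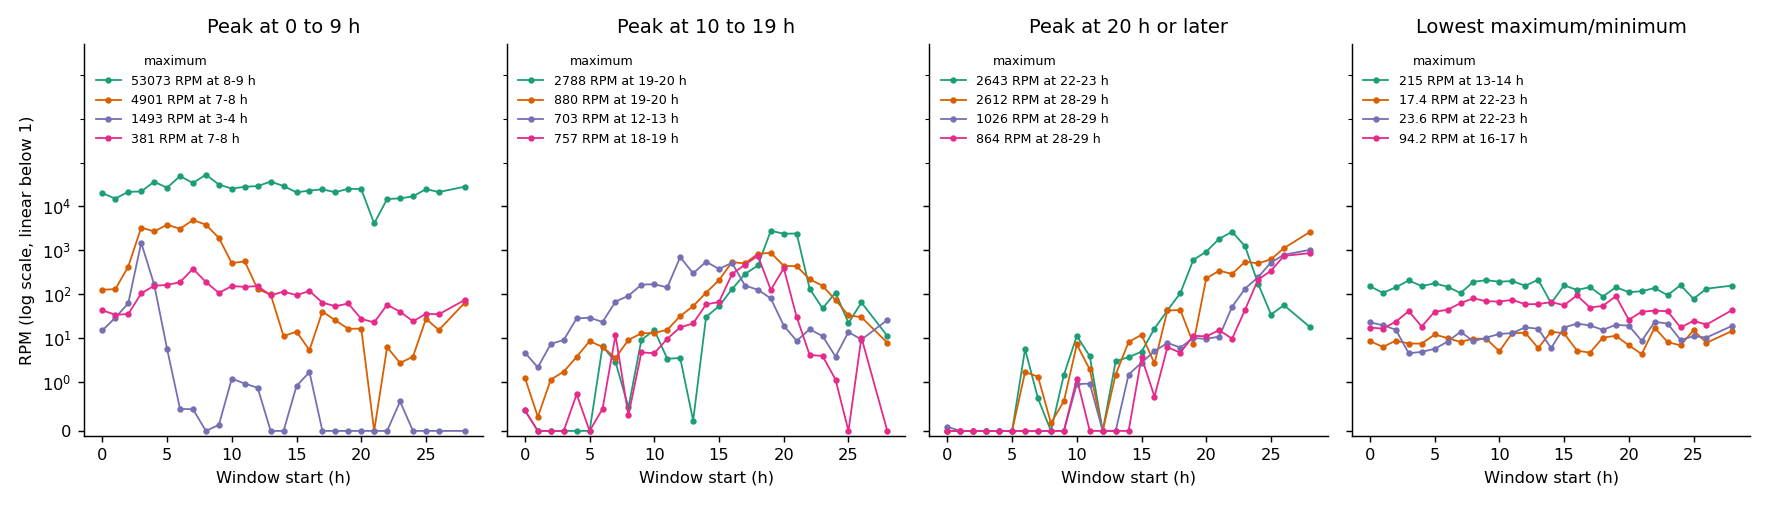
RPM (y axis, log scale, linear below 1) by start of the window in h (x axis) for the 4 highest narrow TSCs of each peak phase that passed the time test and, at the right, the 4 with the lowest ratio of maximum to minimum. Each line is 1 TSC with 1 sample a window, and the legend gives its maximum. The early TSCs other than the most-read one fall steeply or slowly after their peak, the middle ones rise and fall, and the late ones stay at or under 12.0 RPM up to 15-16 h and climb to 864 to 2643 RPM.

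Some of the stronger narrow TSCs of different genes were neighbours. Of the 630 distinct regions that reached 10 RPM, 187 (29.7%) lay in 74 runs in which TSCs of at least 2 genes followed each other within 10 kb, and 21 runs held at least 3 genes. Neighbouring narrow TSCs of different genes peaked within 2 h of each other in 62 of 111 cases (55.9%, 46.6 to 64.7%) when they were within 10 kb, and in 120 of 491 (24.4%, 20.8 to 28.4%) when they were farther apart. All members of a run peaked within 2 h in 30 runs. Runs and neighbours were counted for narrow TSCs only, so these values are not set against wider TSCs. Whether neighbours share reads of 1 transcript was not tested.

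The 4 runs with the most genes had different phases. On chromosome 2 between 8440497 and 8453509, 6 TSCs of 6 genes, all on the minus strand and 2 to 25 bp wide, peaked between 24-25 h and 28-29 h at 10.0 to 365 RPM. Between 10457574 and 10480241 on the same chromosome, 6 TSCs peaked at 20-21 h to 22-23 h, and the run was led by the 2643 RPM promoter given above with a second at 553 RPM. Between 2902906 and 2923513, 5 TSCs on the minus strand peaked at 24-25 h or 25-26 h at 13.8 to 92.0 RPM. The run on 4_group4 between 4113547 and 4127640 was the early one, with 6 TSCs on both strands that peaked from 3-4 h to 12-13 h, among them FBgn0073796_01 at 4901 RPM, one of 5 bp at 132 RPM and the others at 12.1 to 77.6 RPM.

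Where a gene had both kinds of TSC, the narrow one was mostly the minor one. In 712 genes the most-read narrow and the most-read wider TSC each reached 2 RPM, and the wider had more reads in 667 of these pairs. The narrow TSC had a median of 2.38% of its reads. limma's F-test of the difference in log2(RPM + 1), narrow minus wider, called 573 of 712 pairs (80.5%), where 78.8% of the 1793 pairs of all chromosomes were called. The narrow TSC had gained on the wider one at the end of the series in 321 called pairs and lost in 252, where over all pairs 45.3% were called and gained and 33.5% were called and lost. With pairs picked only among TSCs that reached 10 RPM, 152 of 181 were called, against 83.8% of all such pairs. With a pseudocount of 0.1 RPM in place of 1 RPM, 432 of 712 were called, against 58.4%, and 220 of these gained and 212 lost. With all 29 samples it was 344 and 170, so the split moved with these settings. On this scale a narrow TSC that stays low beside a wider TSC that changes gives a call. In the 5 pairs with the smallest adjusted p the narrow TSC reached 2.10 to 21.5 RPM and the wider one 747 to 17238 RPM. In 4 of them the narrow TSC was never the higher one, and in the remaining one it was higher in 3 of 28 windows.

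In the pairs of the main test in which both TSCs reached 10 RPM, the narrow TSC peaked more than 2 h later than the wider one in 73 of 180 pairs (40.6%), more than 2 h earlier in 32 (17.8%) and within 2 h in 75 (41.7%). In 111 of the 573 called pairs each TSC was the higher one in at least 3 windows, and in these the narrow TSC peaked later in 65, earlier in 38 and in the same window in 8. Neither set of pairs was matched for reads, and in 667 of all 712 pairs the wider TSC had more reads. The 5 shallowest windows all started at 19 h or later. There 1 read was worth up to 1.38 RPM, against 0.0843 RPM at 0-1 h, so a peak there can rest on fewer reads. Whether this moved narrow peaks later was not tested, and no share over pairs of all chromosomes is given for comparison. The 4 of the 111 called pairs whose less-read TSC had the most reads, picked after their values were seen, show the forms such pairs took.

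In the first, on 4_group3, a narrow TSC of 27 bp (1135094 to 1135120, minus strand) lay 58761 bp upstream of a wider one of 358 bp. The narrow TSC was the higher one in the first 3 windows, at 30.8, 45.6 and 52.1 RPM against 6.4, 9.6 and 13.3 RPM. The wider TSC then peaked at 186 RPM at 5-6 h and held 4.5 RPM at 28-29 h, while the narrow one held 9.3 RPM at 5-6 h, peaked at 556 RPM at 17-18 h and was the higher one in 20 of 28 windows (adjusted p 1.1e-12). In the second, on chromosome 2, the narrow TSC (20415235 to 20415255, minus strand, 21 bp) lay 1461 bp upstream of a wider TSC that started at 188 RPM and peaked at 262 RPM at 3-4 h. The narrow one was under 3 RPM up to 6-7 h and peaked at 117 RPM at 16-17 h, where the wider one held 39.0 RPM (adjusted p 2.8e-18), and it was the higher one in 12 windows.

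In the remaining pairs the narrow TSC lay downstream. The steady TSC at 1303191 to 1303210 on chromosome 2 lay 200 bp from a wider one of 125 bp that rose to 482 RPM at 4-5 h and was at 42.4 RPM at 21-22 h, and the narrow one was higher in 10 windows (adjusted p 3.5e-04). On 4_group3 a narrow TSC of 30 bp (1200858 to 1200887, minus strand) peaked at 157 RPM at 7-8 h, 3 h before the wider TSC 559 bp away reached 762 RPM, and it was higher in 3 windows (adjusted p 2.9e-11). Of the pairs that missed the test, that with the most reads joined a narrow TSC of at most 4.14 RPM to a wider one of up to 6554 RPM (adjusted p 0.11). The next (adjusted p 0.75) joined TSCs 243 bp apart on 4_group3 that peaked at 24.9 and 4656 RPM.

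**Figure D5:**
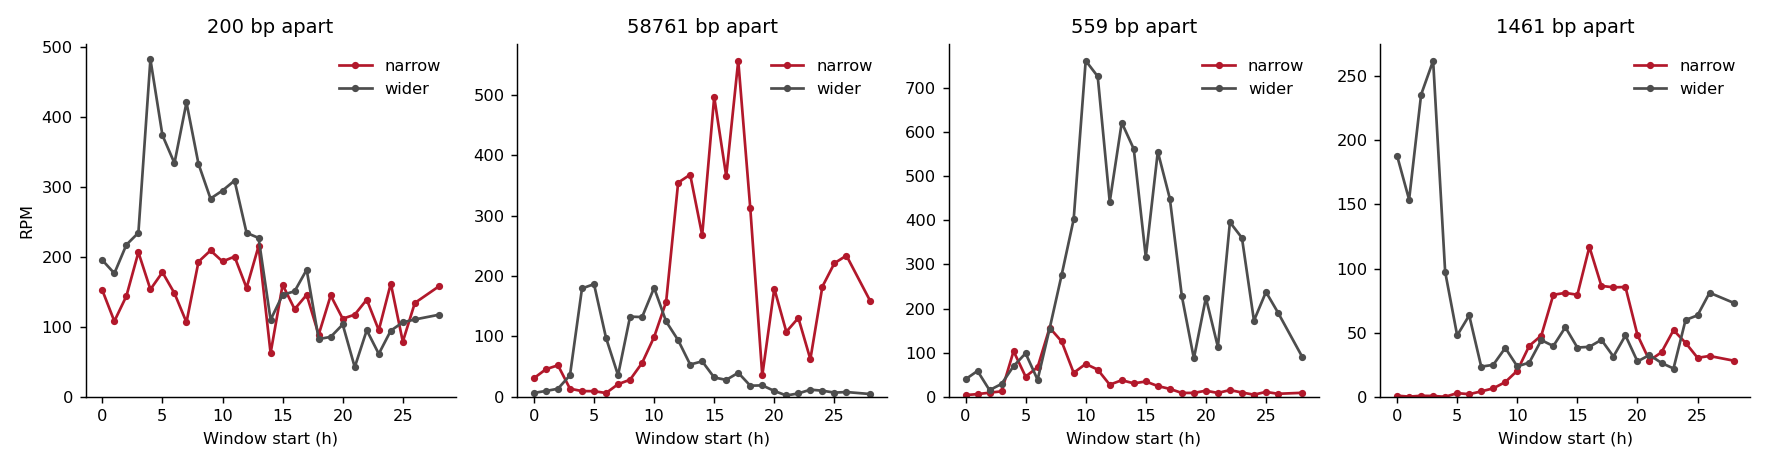
RPM (y axis, linear, its own scale in each panel) by start of the window in h (x axis) for the narrow and the wider TSC of 4 genes, 1 sample a window. The distance between the TSCs heads each panel. With 1461 bp between them the narrow TSC rises after an early wider TSC has fallen, and with 58761 bp it is the higher one before and after the wider TSC peaks. With 200 bp it changes less than the wider one, which rises and then falls, and with 559 bp it peaks before the wider one.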

How the data were processed

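The deposited table of RPM per TSC (reads per 1000000 reads of the sample in TSCs) was made by the authors, who aligned RAMPAGE reads with STAR (version not given in the sources used here) to release 2.9 of the genome, called TSCs on the pooled reads of the whole series and removed those over annotated rDNA repeats. The deposited start and end positions gave the widths. Within a sample each value was a whole multiple of the lowest one (100% of values within 0.1), so reads were recovered by division. Sums were 1000000 RPM per sample. No column of another series was found (0). Gene tables were not used.

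limma 3.58.1 in R 4.3.3 fitted a natural cubic spline (5 degrees of freedom) with the trend option, at an adjusted p of 0.05. edgeR 4.0.16 and DESeq2 1.42.0 on recovered reads, other scalings, filters, spline degrees and width limits were alternatives. Scripts were tested on simulated data. Pairs took the most-read narrow and wider TSC of a gene. Named TSCs were the 10 with the highest mean, the 4 with the highest maximum in each phase among those past the time test, the 4 with the lowest ratio of maximum to minimum, the 5 pairs with the smallest adjusted p and the 2 most-read that missed, and the most-read TSC on each side of the width limit. The gene lists and core promoter motifs planned could not be used, because identifiers were not paired with names and no genome of this release was at hand. Members, lists and rules were chosen with earlier results of these data known. Wilson intervals (95%) and the 3-read floor cover counting error only, and p-values measure scatter around a smooth course of single samples.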

Additional observations from a re-analysis of the deposited data

Results flagged for a closer look

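The 27-28 h sample, which entered no comparison, still held 19 reads of FBgn0250278_01, above the 3 reads that a count of 0 allows. These were 19 of the 30 reads that fell in narrow TSCs there, spread over 12 TSCs, and narrow TSCs made up 9.62% of the gene reads of chromosomes 2 and 4 in that sample.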

How the results depend on the processing

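No paired analysis was possible because each window has 1 sample and the labels give no replicate numbers. Of 64 alternative values, 42 stayed within the limit set for them (a factor of 1.5 for counts, the interval or spread of the main value for the others). The differences between narrow and wider TSCs kept their sign, and the counts and shares among the values cannot change sign. The narrow TSCs called over time numbered 620 of 639 among those that reached 10 RPM and 1182 of 1670 at a width of at most 20 bp, and 1093 of 1133 with edgeR, all with fewer TSCs tested, and 1608 of 2275 with DESeq2 (75.6% of all TSCs). DESeq2 moved the median fitted change of all TSCs from 0.02 to 1.21 (both log2), and limma with all 29 samples gave -0.22. edgeR gave 0.37 in natural-log units over the 16925 TSCs of its own filter, so this value is not on that scale. Of called narrow TSCs, 87.9% ended higher with DESeq2, 79.9% with edgeR and 70.4% in the main test. Over all called TSCs it was 9205 of 14877 with edgeR and 52.5% in the main test, and was not counted with DESeq2. The cause of these shifts was not tested. Called pairs numbered 152 of 181 where both reached 10 RPM and 432 with a pseudocount of 0.1. The narrow TSC ended relatively higher in 56.0% of called pairs, in 50.9% with that pseudocount and in 66.9% with all 29 samples. The late-peak difference of 25.6 points was 20.2 with a minimum of 2 RPM, 21.1 with 25 RPM, 36.6 in bins of maximum RPM and 13.3 with narrow set at 20 bp (TSCs of 21 to 30 bp then counting as wider). It was 18.4 with only the wider side limited to genes that had a narrow TSC of at least 10 RPM (54.1% of 603 narrow and 35.6% of 310 wider TSCs). Narrow TSCs of genes without a wider one stayed in, so this is no difference within genes. The entropy difference of -0.46 bits was -0.38 after thinning to 100 reads and -0.60 with at least 300 reads. The regulated difference of 30.5 points was 23.0 at 20 bp. The share of reads at 0 to 9 h, 8.53%, was 0.833% without the 10 most abundant narrow TSCs, 1.97% without the most-read one, and 22.8% as a share of detected TSCs. At 20 h or later, 10.4% became 5.17%, 5.33% and 23.3%, and 7.41% and 12.9% at limits of 20 and 40 bp. The narrow share of TSCs with at least 300 reads, 9.99%, was 4.53% and 14.3% at these limits. The alternatives without the most-read TSC or the 5 shallow windows, with at least 300 reads, with each region counted once and those for the classes were chosen after seeing the data. Under 30 reads 49.6% of narrow TSCs were called over time, and the part of depth in this was not tested.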
